A study of Mus musculus with 12 samples.

Results

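Spi1, Cebpa, Cebpb, Cebpd, Cebpe, Cebpg, Gfi1, Irf8 and Irf4, the genes of PU.1, of 5 C/EBP proteins and of 3 further factors of granulocyte and monocyte development, were chosen by symbol, and all 9 were among the 55376 genes of the count table. All but Irf4 were among the 11994 genes that passed the filter on low counts. The series holds 12 mRNA libraries, 3 in each of 4 groups, made from progenitors of mouse bone marrow that were positive for c-Kit and Sca-1 and negative for lineage markers. The groups carried NUP98-NSD1 with shNizp1#2, NUP98-NSD1 with shNizp1#1, NUP98-NSD1 with the control hairpin (sh#ctrl), or the MSCV retroviral vector with sh#ctrl. All cells were grown in RPMI with IL-3 at 20 ng/ml, IL-6 at 20 ng/ml and SCF at 100 ng/ml, and were selected with geneticin after retroviral transduction. NUP98-NSD1, a leukaemia fusion, joins part of the nuclear pore protein NUP98 to the histone methyltransferase NSD1, and Nizp1 (Zkscan17 in the table) is a zinc finger protein that, by the title of the series, interacts with the fusion. The hairpins were expressed constitutively from pLKO.1-puro. How long the cells carried them before RNA was taken is not stated here, so early and late effects of the loss are not told apart. Strain, sex and age of the mice, and whether cultures were pooled, were not given in the sources used here.

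PU.1, an ETS-family factor encoded by Spi1, is needed for both the granulocyte and the monocyte lineage and, at other doses, for mast cells and B cells. The C/EBP proteins are basic leucine zipper factors that pair with one another: C/EBPα drives the entry of progenitors into the granulocyte-monocyte lineage, C/EBPβ acts in emergency granulopoiesis and in macrophages, C/EBPδ is an acute-phase factor, C/EBPε is needed for the secondary granules of neutrophils, and C/EBPγ lacks a classical activation domain. GFI1 is a zinc finger repressor that favours neutrophils over monocytes, while IRF8 favours monocytes and dendritic cells, and IRF4, its close relative, acts in dendritic cells, macrophages and lymphocytes.

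Total counts ran from 3586538 to 6842589 per library, and levels are given in CPM, counts scaled to a library total of 1e6 with the TMM factor, where 3 counts, the most that a count of 0 allows, came to between 0.417 and 0.837 CPM in a library. Reads carried no molecular identifiers, so intervals on counts cover counting error only. Zkscan17 averaged 24.5 ± 6.08 CPM with shNizp1#2, 30.5 ± 4.37 CPM with shNizp1#1, 57.9 ± 7.42 CPM with NUP98-NSD1 and sh#ctrl, and 63.1 ± 5.69 CPM with MSCV (SD, n = 3 each), and both hairpin groups lay below both control groups. Against sh#ctrl in fusion cells its adjusted p (edgeR) was 0.228 with shNizp1#2 and 0.490 with shNizp1#1 in the fit with group means, and 2.90e-04 and 0.00198 with the replicate number as a block. Libraries that share a replicate number varied together in every group and are called an experiment here, which is an inference from the data. All 12 libraries held abundant mast cell RNA: 9 mast cell markers (Cpa3, Cma1, Fcer1a and others) summed to between 35648 and 58634 CPM. The 8 stem and progenitor markers, with Kit among them, summed to between 3942 and 4947 CPM. In bulk RNA, fewer cells of a type and less RNA per cell cannot be told apart.

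By level per length of transcript (CPM per kilobase of exon, mean over 12 libraries), Spi1 came first with 55.8, followed by Gfi1 with 22.4, Cebpb with 19.0, Cebpg with 12.98, Irf8 with 4.14, Cebpa with 3.99, Cebpe with 2.49, Cebpd with 1.37 and Irf4 with 0.200. Spi1 stood clear of its neighbour: its lowest library had 45.1 CPM per kilobase, and the highest library of Gfi1 had 32.2. Every other neighbouring pair in that order overlapped in range, although Cebpg was above Irf8, and Cebpd above Irf4, in 12 of 12 libraries. The order among Irf8, Cebpa, Cebpe and Cebpd depended on the library, because each of these genes spanned a wide range.

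The genes lie on 7 chromosomes of mm10, in the coordinates of the table. Spi1 occupies chr2:91096096-91115756 on the plus strand with 5 exon blocks, and Cebpb, an intronless gene, chr2:167688915-167690418 on the plus strand. Cebpa, also a single exon, lies at chr7:35119293-35121928 on the plus strand, and its paralogue Cebpg at chr7:35046422-35056573 on the minus strand with 3 exon blocks. Cebpd is a single exon at chr16:15887286-15891031 on the plus strand, and Cebpe has 2 exon blocks at chr14:54710360-54712174 on the minus strand. Gfi1 lies at chr5:107716657-107725805 on the minus strand, Irf8 at chr8:120736358-120756694 and Irf4 at chr13:30749226-30766976, both on the plus strand. Of the 3746 exonic bases of Cebpd, 562 are shared with Spidr, a DNA repair gene on the opposite strand that had 1863 counts over the 12 libraries, against 312 of Cebpd. The strand setting of the counting is not given, so reads of these genes may not have been told apart and the level of Cebpd is uncertain.

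Promoter windows of 300 bases, from 250 before the start site to 50 from it, were available from RefSeq (GRCm38.p6, the mm10 build) for 6 of the 9 genes: Cebpa, Cebpb, Cebpg, Gfi1, Irf8 and Irf4. Those of 4 genes are printed for the contrast described below: of the 6 genes with a window, Irf4, Irf8 and Cebpa had the highest ratios of experiment 2 to experiment 3, and Cebpg had the lowest, below 1. Each is read 5′ to 3′ on the strand of its gene, and capitals mark TATAAA (the TATA box), CCAAT (printed as its complement ATTGG), the GFI1 core AAATCAC (printed as GTGATTT) and the PU.1 core GAGGAA (printed as TTCCTC).
Cebpa, chr7:35119043-35119342: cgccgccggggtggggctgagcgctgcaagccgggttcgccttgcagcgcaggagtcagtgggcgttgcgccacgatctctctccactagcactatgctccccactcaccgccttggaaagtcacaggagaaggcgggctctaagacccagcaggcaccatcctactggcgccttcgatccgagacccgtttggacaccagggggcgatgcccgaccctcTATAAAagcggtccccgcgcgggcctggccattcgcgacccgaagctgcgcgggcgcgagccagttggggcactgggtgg
Irf8, chr8:120736108-120736407: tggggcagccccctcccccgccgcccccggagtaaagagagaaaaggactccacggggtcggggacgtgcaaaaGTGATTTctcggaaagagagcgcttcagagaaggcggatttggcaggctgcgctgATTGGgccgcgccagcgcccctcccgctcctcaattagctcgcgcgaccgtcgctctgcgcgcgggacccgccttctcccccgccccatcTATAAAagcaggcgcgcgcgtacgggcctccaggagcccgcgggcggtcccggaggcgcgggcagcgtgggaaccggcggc
Irf4, chr13:30748983-30749282: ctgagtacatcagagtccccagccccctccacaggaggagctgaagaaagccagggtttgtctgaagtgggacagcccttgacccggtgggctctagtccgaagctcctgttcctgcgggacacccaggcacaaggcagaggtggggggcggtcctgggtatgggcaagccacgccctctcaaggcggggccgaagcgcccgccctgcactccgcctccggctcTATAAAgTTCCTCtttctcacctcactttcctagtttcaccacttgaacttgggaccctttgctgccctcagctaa
Cebpg, chr7:35056517-35056816: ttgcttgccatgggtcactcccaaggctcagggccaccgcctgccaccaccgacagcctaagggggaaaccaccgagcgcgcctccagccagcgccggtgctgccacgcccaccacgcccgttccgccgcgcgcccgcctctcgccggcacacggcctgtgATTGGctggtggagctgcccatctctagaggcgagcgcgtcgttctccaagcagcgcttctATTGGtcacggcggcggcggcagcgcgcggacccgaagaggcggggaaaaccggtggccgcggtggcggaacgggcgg
TATAAA begins 30 bases before the start site in Cebpa, 31 before it in Irf8 and 26 before it in Irf4, and none was found in the window of Cebpg, which holds 2 CCAAT boxes, 89 and 28 bases before the start. Cebpb holds TATAAA 22 bases after the annotated start. The Irf8 window also holds CCAAT and the GFI1 core, 121 and 176 bases before the start, and the Irf4 window holds GAGGAA 19 bases before it, which does not overlap the TATA box. Gfi1 holds 1 match to the spaced C/EBP half-sites TTGCNNAA, 143 bases before its start. Among 32851 RefSeq windows of this length, searched on both strands, 13.6% held TATAAA, 37.4% CCAAT, 3.2% AAATCAC, 28.3% GAGGAA and 10.8% TTGCNNAA. The GC content was 67.3% for Cebpa, 70.0% for Irf8, 61.0% for Irf4 and 71.7% for Cebpg, against a median of 52.7% over all windows. No match was found in the 6 windows to the ETS core AGGAAGT, held by 9.35% of all windows, to the GATA core GATA (57.9%), to the AP-1 motif TGANTCA (7.81%), or to the PU.1-IRF composite element (2.72%) and the IRF repeat (3.44%). These matches describe letters in the window and not binding. The printed windows were chosen by the ratios of these data, and a relation of the motifs to those ratios was not tested.

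The experiment, more than the construct, went with the level of the C/EBP genes and of Irf8. In the test of replicate number (edgeR quasi-likelihood, with group in the model), 7 of the 8 tested factors were called at an adjusted p under 0.05, against 53.5% of all tested genes. The direction was shared: 8 of the 9 genes had their highest mean in experiment 2, as did 35.9% of all tested genes, and 7 of the 9 had their lowest mean in experiment 3, as did 37.8% of all tested genes. The size differed widely among the 9 genes. Replicate number accounted for between 81.0% and 87.7% of the variance of log2(CPM + 1) in Cebpa, Cebpb, Cebpd, Cebpe and Irf8, for 76.9% in Cebpg, 67.1% in Irf4, 59.7% in Spi1 and 29.6% in Gfi1. The median over all tested genes was 48.7%. Group accounted for at most 8.55% in those 5 genes.

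**Figure D1:**
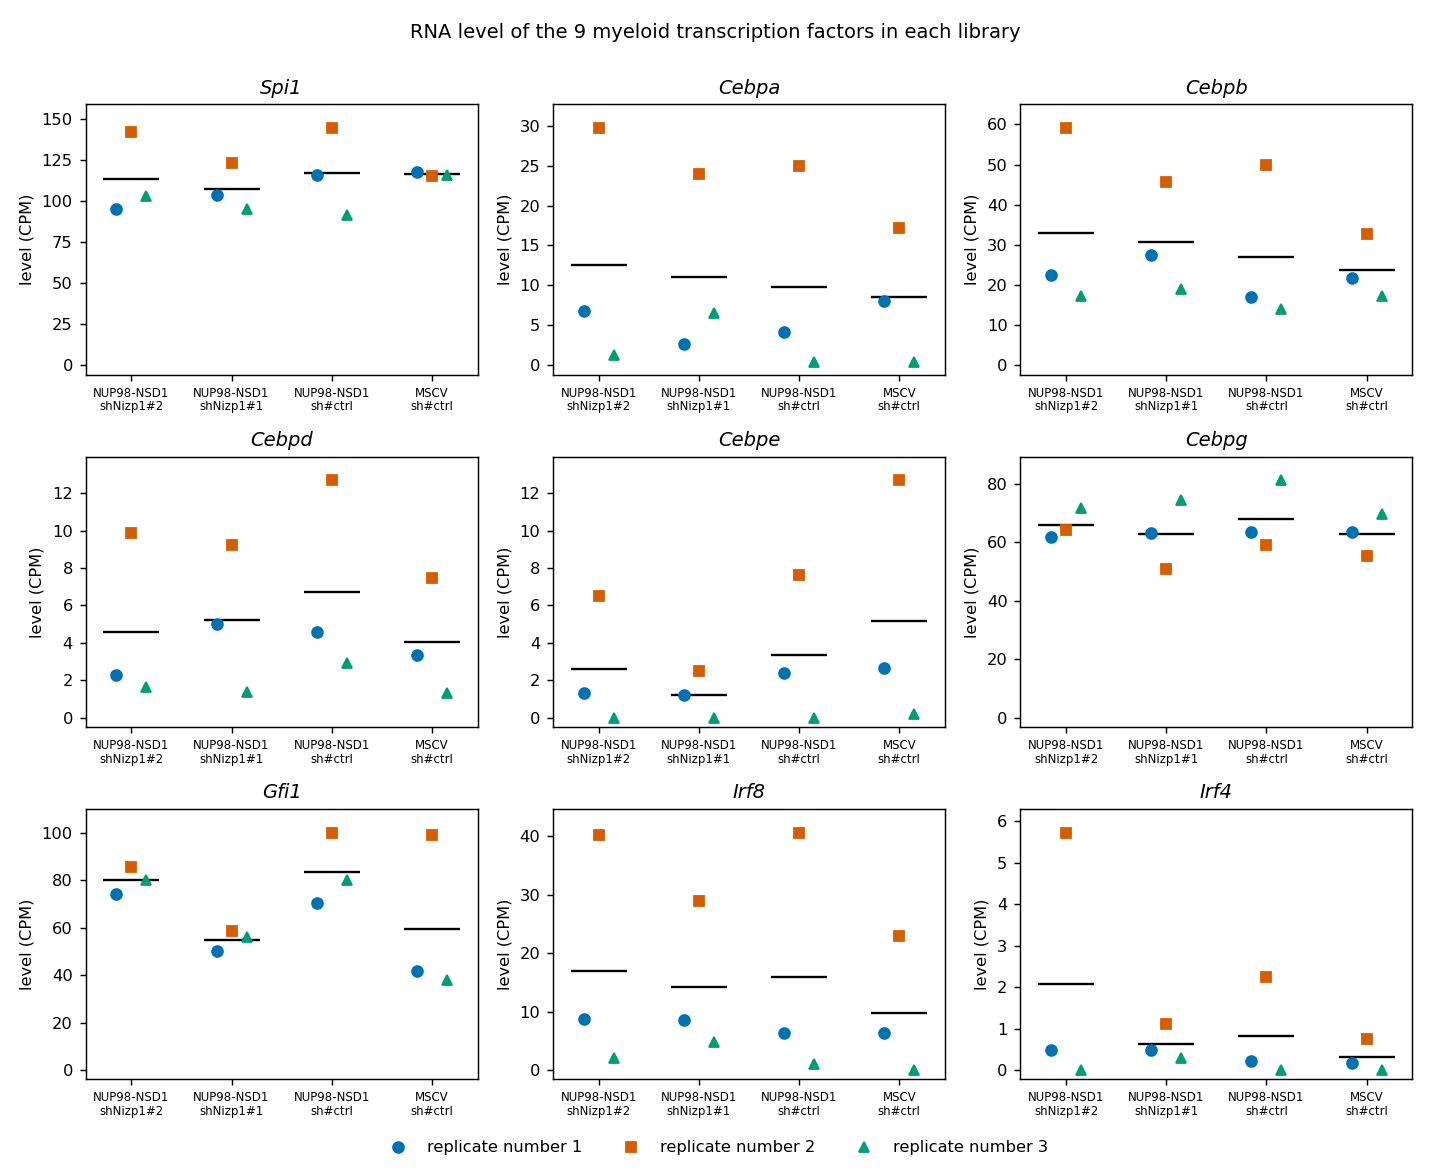
RNA level in CPM (vertical axes, 1 panel per gene) in each of the 12 libraries, by group (horizontal axes) and replicate number (circles 1, squares 2, triangles 3), with a black bar at the mean of each group. The squares of Cebpa, Cebpb, Cebpd, Cebpe and Irf8 lie above the circles and triangles of their group, whereas the Gfi1 libraries with shNizp1#1, at 50.2 to 58.6 CPM, lie below all those with shNizp1#2 or with NUP98-NSD1 and sh#ctrl.

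Cebpa showed the pattern in full. It had 6.85, 29.7 and 1.32 CPM in experiments 1, 2 and 3 with shNizp1#2 and 2.62, 24.0 and 6.53 CPM with shNizp1#1. It had 4.16, 25.0 and 0.392 CPM with NUP98-NSD1 and sh#ctrl, and 8.12, 17.2 and 0.434 CPM with MSCV. All 4 libraries of experiment 2 lay above the other 8, and the 4 groups overlapped one another. Over the 4 libraries of each, experiment 2 held 481 counts and experiment 3 held 60, a ratio of 9.78 after scaling for depth (95% interval of counting error 7.47 to 13.02). The shNizp1#1 library held 47 of the 60 counts of experiment 3, and without it the ratio was 31.4 (18.2 to 59.5). With all 12 libraries the adjusted p for replicate number was 0.00787 (edgeR). That library was also the only one of experiment 3 with more Cebpa than its counterpart in experiment 1.

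Irf8 ran in parallel with Cebpa. With shNizp1#2 it had 8.81, 40.2 and 2.05 CPM in experiments 1, 2 and 3, and with shNizp1#1 it had 8.56, 29.0 and 4.86 CPM. With NUP98-NSD1 and sh#ctrl it had 6.35, 40.6 and 0.981 CPM, and with MSCV 6.35, 22.9 and 0 CPM. Experiment 2 was the highest and experiment 3 the lowest in each of the 4 groups, with 674 counts in experiment 2 against 54 in experiment 3, a ratio of 15.2 (11.5 to 20.5). The shNizp1#1 library held 35 of the 54, and without it the ratio was 30.1 (19.2 to 50.4). The adjusted p for replicate number was 2.46e-04 (edgeR), and the contrast of experiment 2 over experiment 1 was 2.14 on the log2 scale (SE 0.39).

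Irf4, the relative of Irf8, was near the limit of detection. Its counts in experiments 1, 2 and 3 were 3, 37 and 0 with shNizp1#2, 2, 4 and 2 with shNizp1#1, 1, 12 and 0 with NUP98-NSD1 and sh#ctrl, and 1, 3 and 0 with MSCV. Only 3 of the 12 libraries had more than 3 counts, all of them in experiment 2, and 1 library, shNizp1#2 in experiment 2, held 37 of the 65 counts. The sums were 56 counts in experiment 2 and 2 in experiment 3, a ratio of 34.2 with a counting interval of 9.03 to 289, or 17.4 (4.19 to 154) without that library. Irf4 did not pass the filter, and in a fit without a filter its adjusted p for replicate number was 6.66e-07 (edgeR).

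Cebpe, the gene of the neutrophil granule regulator, was detected in 2 of the 3 experiments. Its counts in experiments 1, 2 and 3 were 8, 42 and 0 with shNizp1#2, 5, 9 and 0 with shNizp1#1, 11, 41 and 0 with NUP98-NSD1 and sh#ctrl, and 15, 51 and 1 with MSCV. Experiment 3 thus held 1 count in 4 libraries, against 143 in experiment 2, a ratio of 174 whose counting interval reaches from 30.8 to 6939 and which rests on that 1 count in the MSCV library. The adjusted p for replicate number was 3.10e-06 (edgeR). In experiment 2 the library with shNizp1#1 had 2.51 CPM, against 6.49 CPM with shNizp1#2, 7.64 CPM with NUP98-NSD1 and sh#ctrl and 12.7 CPM with MSCV.

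Cebpb and Cebpd followed the same order of experiments with smaller ratios. Cebpb had 22.5, 59.0 and 17.2 CPM in experiments 1, 2 and 3 with shNizp1#2, and 27.6, 45.8 and 19.0 CPM with shNizp1#1. It had 17.1, 49.95 and 13.9 CPM with NUP98-NSD1 and sh#ctrl, and 21.7, 32.6 and 17.2 CPM with MSCV, so that experiment 2 was highest and experiment 3 lowest in every group (adjusted p 1.55e-05, edgeR). Its ratio of experiment 2 to experiment 3 was 2.85. Cebpd ranged between 7.46 and 12.7 CPM in experiment 2, between 2.28 and 4.996 CPM in experiment 1 and between 1.303 and 2.94 CPM in experiment 3, with a ratio of 5.67 (4.04 to 8.11) and an adjusted p of 3.48e-05.

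Spi1 and Cebpg were steady by comparison. Spi1 had 95.4, 142 and 103 CPM in experiments 1, 2 and 3 with shNizp1#2, and 104, 123 and 94.99 CPM with shNizp1#1. It had 116, 144 and 91.6 CPM with NUP98-NSD1 and sh#ctrl, and 118, 115 and 116 CPM with MSCV. The 3 MSCV libraries lay within 3 CPM of each other, whereas in each of the NUP98-NSD1 groups experiment 2 was the highest, and the ratio of experiment 2 to experiment 3 over all groups was 1.33 (adjusted p 0.0155, edgeR). Cebpg moved the other way, with 51.1 to 64.2 CPM in experiment 2, 62.0 to 63.7 CPM in experiment 1 and 69.9 to 81.2 CPM in experiment 3, which was the highest in each of the 4 groups (ratio of experiment 2 to experiment 3 0.788, adjusted p 0.00773). Without the library of experiment 2 with shNizp1#2, or without that with NUP98-NSD1 and sh#ctrl, Spi1 was no longer called for replicate number (adjusted p 0.0695 and 0.0769).

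**Figure D2:**
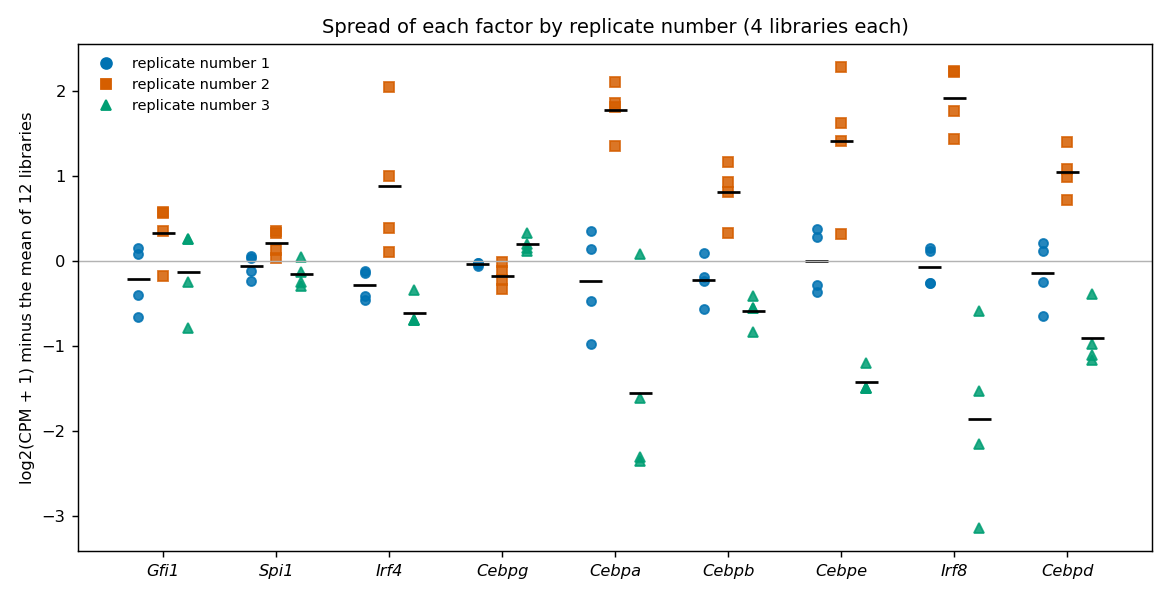
log2(CPM + 1) minus the gene's mean over the 12 libraries (vertical axis) for each factor (horizontal axis, ordered by the share of variance that goes with replicate number), with 4 libraries per replicate number and a bar at their mean. Experiment 2 is above experiment 3 for 8 of the 9 genes, and Cebpg runs the other way.

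The make-up of the C/EBP family therefore differed between experiments. Of the summed level per length of the 5 C/EBP genes, Cebpg took between 18.0% and 21.5% in experiment 2, 36.9% to 44.2% in experiment 1 and 49.0% to 61.4% in experiment 3, with no overlap between experiments. Cebpa took 12.7% to 16.8% in experiment 2, 2.90% to 9.27% in experiment 1 and 0.563% to 8.15% in experiment 3. Cebpb was the most even member, with 42.1% to 56.1%, 39.4% to 53.5% and 35.0% to 43.8% in experiments 2, 1 and 3. Cebpe reached 19.9% in the MSCV library of experiment 2 and was at most 0.671% in experiment 3, and Cebpd stayed between 1.22% and 5.28% in all 12 libraries.

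**Figure D3:**
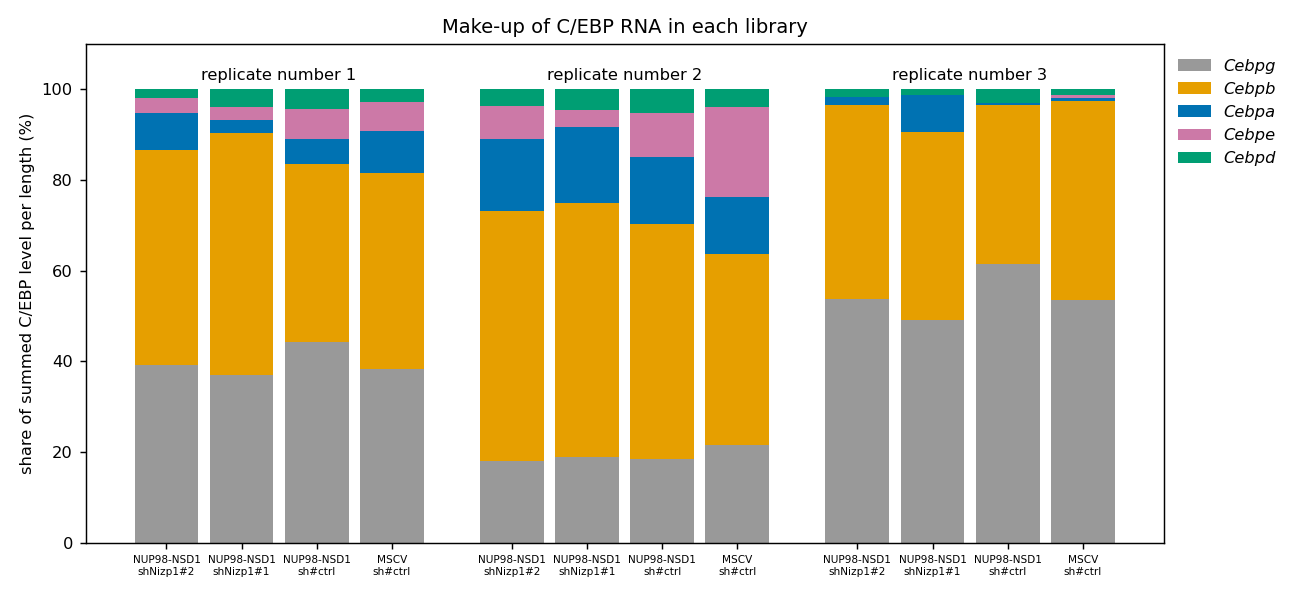
Share of the summed level per length (CPM per kilobase of exon) of 5 C/EBP genes (vertical axis, percent) in each library, ordered by replicate number and group. Cebpg and Cebpb together make up most of the total in all 12 libraries, and the share of Cebpg is smallest in experiment 2 and largest in experiment 3.

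Markers of granulocytes, monocytes and dendritic cells were also highest in experiment 2. The 8 neutrophil markers summed to between 821 and 1549 CPM in experiment 2, 186 to 425 CPM in experiment 1 and 2.17 to 9.58 CPM in experiment 3, where Ltf, Camp and Retnlg were at 0 in all 4 libraries. The 9 monocyte and macrophage markers summed to between 2068 and 3772 CPM in experiment 2, 873 to 1562 CPM in experiment 1 and 88.2 to 1145 CPM in experiment 3, where the shNizp1#1 library, at 1145 CPM, was above its counterpart of experiment 1, at 873 CPM. The 8 dendritic cell markers summed to 137 to 493, 72.2 to 113 and 26.1 to 53.3 CPM in experiments 2, 1 and 3, with Xcr1 at 0 throughout experiments 1 and 2 and Siglech throughout experiments 1 and 3. The 6 eosinophil markers summed to 24.8 to 187 CPM in experiment 2, with 187 in the MSCV library. They summed to 19.5 to 27.9 CPM in experiment 1, which overlapped experiment 2, and to 9.34 to 15.3 CPM in experiment 3, where Prg3 was at 0. The 4 basophil markers summed to 812 to 918, 453 to 706 and 282 to 435 CPM in experiments 2, 1 and 3. Mast cell markers overlapped between experiments 1 and 2 and were lower in experiment 3 than in most other libraries, at 35648 to 41570 CPM. Megakaryocyte markers summed to between 1226 and 1964 CPM with Gp1bb at 0 throughout, and Itga2b alone gave 1212 to 1920 CPM. Pf4, Ppbp and Gp9 were lower in experiment 3 than in experiment 2 in each group. Pf4 had 36.3 to 81.5 CPM in experiment 2 and 0.434 to 12.4 CPM in experiment 3. Markers of B cells (at most 0.373 CPM), T and NK cells (at most 9.13 CPM) and erythroid cells (at most 13.8 CPM) were low in every library. The part of these cells in the levels of the 9 factors was not tested.

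The genes downstream of these factors, taken from lists of known targets, are set here against all tested genes, of which 53.5% were called for replicate number, 35.9% had their highest mean in experiment 2 and 37.8% their lowest in experiment 3. Of 16 late neutrophil genes linked to C/EBPε and GFI1, 16 were called for replicate number, and 16 had their highest mean in experiment 2 and their lowest in experiment 3. Of 21 myeloid genes known as targets of PU.1 and C/EBP proteins, 18 were called, 19 were highest in experiment 2 and 18 lowest in experiment 3. The receptor of G-CSF, Csf3r, a C/EBP target, had 17.6 to 40.4 CPM in experiment 2 and at most 1.11 CPM in experiment 3. The M-CSF receptor Csf1r, a PU.1 target, had 97.3 to 235 CPM in experiment 2 and 1.95 to 33.6 CPM in experiment 3. Ctsg and Tyrobp, on the same list, had their highest mean in experiment 3. Ctsg had 134 to 295 CPM in experiment 2 and 461 to 982 CPM in experiment 3. The most abundant target genes were not called, with an adjusted p (edgeR) of 0.0930 for Csf2rb and 0.0822 for the lysozyme gene Lyz2. Csf2rb, the shared β chain of the IL-3, IL-5 and GM-CSF receptors, stayed between 3379 and 4914 CPM. Lyz2 ran from 32.4 to 2740 CPM and was highest in experiment 2 in each group. Of 13 measured genes linked to IRF8 and IRF4, 13 were called and 9 were highest in experiment 2. Of 27 measured other regulators, 25 were called and 17 were highest in experiment 2. Egr1, an immediate early factor that favours monocytes, had 1093 to 2191 CPM in experiment 2 against 206 to 466 CPM in experiment 1, while Gata2, a mast cell and progenitor factor, stayed between 1393 and 2095 CPM in all libraries. The neutrophil markers above are all on the late neutrophil list, and some monocyte and dendritic cell markers are on the other lists, so these counts are not separate evidence.

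Between the study's groups, by contrast, no factor was called in any comparison. The question set by the design is whether the fusion, and the loss of Nizp1 in fusion cells, changes these genes. With the fusion over MSCV (both with sh#ctrl), 0 of the 8 tested factors were called by edgeR in the fit with group means, in which 0.00834% of all tested genes were called, and 0 in the fit that adds the replicate number as a block, in which 0.275% were called. With shNizp1#1 over sh#ctrl in fusion cells the count was 0 in both fits, against 0% and 1.63% of all genes. With shNizp1#2 over sh#ctrl it was 0 in both, against 0.00834% and 0.217%, and with the mean of both hairpins over sh#ctrl it was 0 in both, against 0% and 0.359%. With shNizp1#2 over shNizp1#1 it was 0 in both, against 0.00834% and 2.37%. No factor had an unadjusted p under 0.05 in the fit with group means. With the block, 2 factors did with the fusion, 2 with shNizp1#1 and 0 with shNizp1#2. The count was 1 with the mean of both hairpins and 1 between the hairpins. Of the 11994 tested genes, 1319, 1479, 1331, 1317 and 1779 did in the same comparisons, in that order. DESeq2 and limma-voom called 0 of the 8 in each comparison, with and without the block. The comparisons with sh#ctrl in fusion cells share those 3 libraries. A p that misses the threshold does not show that the levels did not differ, and the intervals say how large a difference remains possible.

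The intervals were narrow for the steady genes and wide for the genes that varied between experiments. For Spi1 the blocked log2 fold change was -0.05 with shNizp1#2 (95% interval -0.30 to 0.21), -0.12 with shNizp1#1 (-0.37 to 0.14) and -0.02 with the fusion over MSCV (-0.27 to 0.24). For Cebpg it was -0.03 (-0.25 to 0.18) with shNizp1#2, -0.11 (-0.33 to 0.11) with shNizp1#1 and 0.11 (-0.11 to 0.32) with the fusion. Cebpa lay at the other extreme, at 0.43 (-1.27 to 2.14) with shNizp1#2, 0.67 (-1.13 to 2.47) with shNizp1#1 and -0.10 (-1.92 to 1.72) with the fusion. Irf8 was at 0.22 (-0.84 to 1.28), 0.33 (-0.79 to 1.44) and 0.59 (-0.56 to 1.73) in the same 3 comparisons, and Cebpb at 0.29 (-0.10 to 0.68), 0.29 (-0.11 to 0.70) and 0.04 (-0.37 to 0.45). In the fit with group means the interval of Cebpa with the fusion reached from -3.11 to 3.54, and that of Spi1 from -0.41 to 0.43.

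Gfi1 was not called between groups either, but it was the 1 tested factor whose libraries did not overlap in some comparisons. It had 74.2, 85.6 and 80.0 CPM in experiments 1, 2 and 3 with shNizp1#2, and 50.2, 58.6 and 55.8 CPM with shNizp1#1. It had 70.5, 99.9 and 80.1 CPM with NUP98-NSD1 and sh#ctrl, and 41.7, 98.8 and 38.0 CPM with MSCV. The 3 libraries with shNizp1#1 lay below all 3 with shNizp1#2 and all 3 with NUP98-NSD1 and sh#ctrl, in comparisons in which the groups of 9.2% and 8.38% of all tested genes did not overlap in either direction. The MSCV group overlapped every other group, and its library of experiment 2 was more than 50 CPM above the other 2. Group accounted for 43.2% of its variance, against a median of 20.6% over all tested genes.

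The means of Gfi1 were 79.9 ± 5.72 CPM with shNizp1#2, 54.9 ± 4.29 CPM with shNizp1#1, 83.5 ± 14.99 CPM with NUP98-NSD1 and sh#ctrl, and 59.5 ± 34.1 CPM with MSCV (SD, n = 3 each). With shNizp1#1 over sh#ctrl the log2 fold change was -0.61 in the fit with group means (SE 0.31, adjusted p 1.00, edgeR) and -0.58 with the block (SE 0.22, interval -1.08 to -0.08, adjusted p 0.314), and the level was lower in 3 of 3 experiments. With shNizp1#2 over shNizp1#1 it was 0.54 in both fits (blocked SE 0.22, interval 0.04 to 1.03, adjusted p 0.291), higher in 3 of 3 experiments. With shNizp1#2 over sh#ctrl it was -0.04 with the block (-0.53 to 0.44), unlike the estimate for the other hairpin. With the fusion over MSCV it was 0.49 with group means and 0.56 with the block (SE 0.22, interval 0.06 to 1.06, adjusted p 0.418), higher in 3 of 3 experiments but by 99.9 against 98.8 CPM in experiment 2.

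The call for Gfi1 depended on the fit and on 1 library. Without the MSCV library of experiment 2, the blocked log2 fold change of the fusion over MSCV was 0.96 and was called (adjusted p 0.00168, edgeR), and without experiment 2 in all groups it was 0.91 (adjusted p 0.00472). When only the groups compared entered the blocked fit, the adjusted p was 0.0349 for shNizp1#1 over sh#ctrl and 4.80e-04 for shNizp1#2 over shNizp1#1. In the blocked fit without a filter on low counts, Gfi1 was called in these 3 comparisons, with adjusted p-values of 0.00178, 7.55e-04 and 0.00208. For replicate number Gfi1 was not called (adjusted p 0.0597), unlike the other 7 tested factors.

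**Figure D4:**
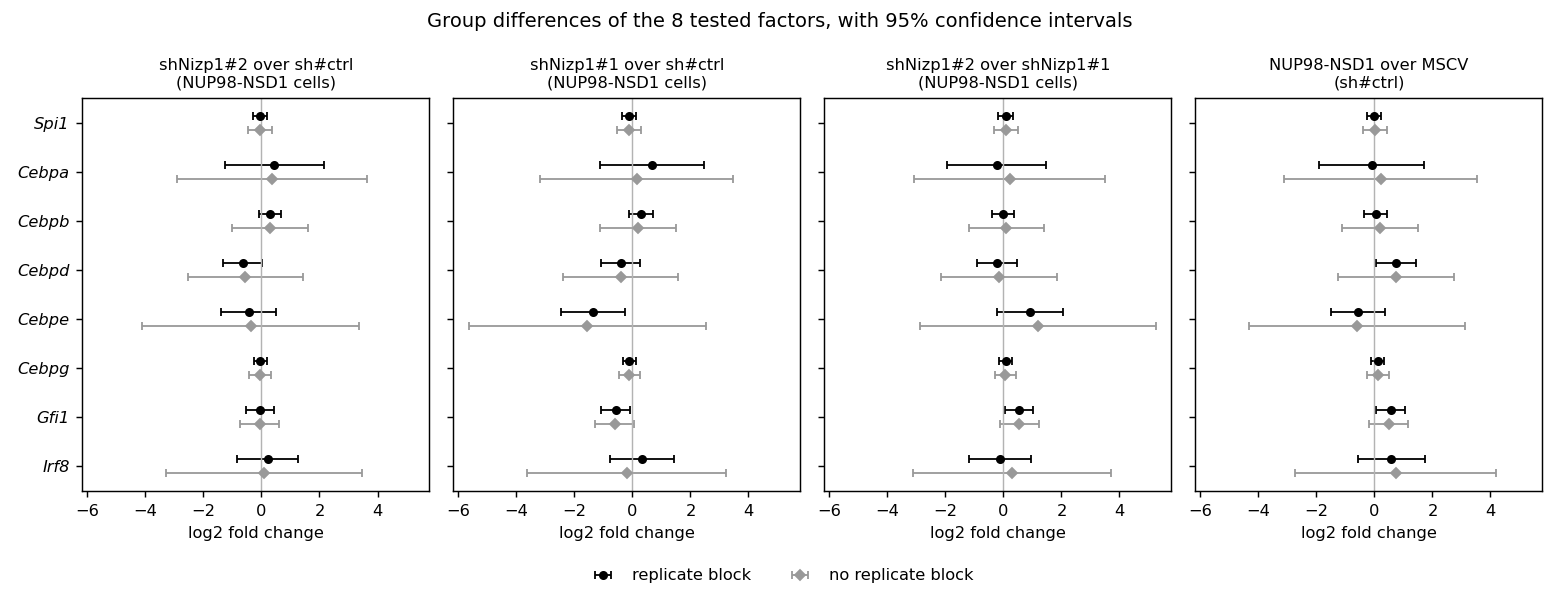
log2 fold change (horizontal axes) of the 8 tested factors (rows) in 4 comparisons (panels), with 95% confidence intervals, from the edgeR fit with the replicate block (black circles) and from that with group means alone (grey diamonds). The blocked intervals of Gfi1 lie below 0 with shNizp1#1 over sh#ctrl and above 0 with shNizp1#2 over shNizp1#1 and with NUP98-NSD1 over MSCV, and no factor passed an adjusted p of 0.05.

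Apart from Gfi1, the unadjusted p-values under 0.05 were those of Cebpe with shNizp1#1 and with the mean of both hairpins, and of Cebpd with the fusion. For Cebpe the blocked log2 fold change with shNizp1#1 over sh#ctrl was -1.36 (SE 0.52, adjusted p 0.273, edgeR), from 5, 9 and 0 counts with shNizp1#1 against 11, 41 and 0 with sh#ctrl, and with the mean of both hairpins it was -0.90 (adjusted p 0.442). For Cebpd it was 0.75 with the fusion over MSCV (SE 0.33, adjusted p 0.427), higher in 3 of 3 experiments, and with shNizp1#2 over sh#ctrl, at an unadjusted p of 0.0554, it was -0.65 (adjusted p 0.467), with lower levels in 3 of 3 experiments. The groups overlapped in each of these comparisons. Irf4, tested in the blocked fit without a filter, had adjusted p-values of 0.958 or more in all 5 comparisons.

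The lists around the factors were also mostly uncalled between groups, with the late neutrophil genes as the exception. In the fit with group means 0 members of any of the 4 lists were called in any of the 5 comparisons, and the counts that follow are from the blocked fit. With shNizp1#1 over sh#ctrl, the 16 late neutrophil genes had a median log2 fold change of -1.37, against -0.004 over all tested genes. Of the 16, 7 were called lower and none higher, where 1.63% of all tested genes were called. They included Camp, the cathelicidin gene (-1.72, SE 0.27, adjusted p 0.0114), Ngp, a neutrophil granule gene (-1.55, SE 0.22, adjusted p 0.00756), Pglyrp1, a bactericidal peptidoglycan-binding protein (-1.55, adjusted p 0.0363), and Ltf, lactoferrin (-1.51, adjusted p 0.0247). Ngp had 22.1, 112 and 0.278 CPM in experiments 1, 2 and 3 with shNizp1#1, against 72.7, 301 and 0.196 CPM with sh#ctrl, so that the difference was seen in experiments 1 and 2, and experiment 3 held almost no RNA of the gene. Of the 16 estimates, 15 were below 0 and 1 was above 0. Mmp8 was higher with shNizp1#1 in each experiment, at 45.0, 254 and 8.89 CPM against 33.1, 189 and 1.96 CPM with sh#ctrl. Leaving out 1 library at a time gave between 2 and 6 lower genes, and leaving out experiment 1, 2 or 3 gave 0, 3 and 3. Ngp was called in 4 of the 6 fits without 1 library of these groups, Camp and Ltf in 3 and Pglyrp1 in 0.

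Between the hairpins, the 16 late neutrophil genes had a median log2 fold change of 1.06. Of the 16, 5 were called higher with shNizp1#2 than with shNizp1#1 and none lower, where 2.37% of all tested genes were called. Among the 5 were Camp (1.19, adjusted p 0.0473, edgeR), Lcn2, lipocalin 2 (1.103, adjusted p 0.0406), S100a8, a calprotectin subunit (1.01, adjusted p 0.00387), and Ngp (0.96, adjusted p 0.0491). S100a8 had 71.8, 252 and 0 CPM in experiments 1, 2 and 3 with shNizp1#2, against 37.8, 118 and 0.139 CPM with shNizp1#1. Leaving out 1 library at a time gave between 0 and 3 such genes, and leaving out experiment 1, 2 or 3 gave 0, 0 and 1. S100a8 was called in 4 of the 6 fits without 1 library of these groups, Ngp in 1, and Camp and Lcn2 in 0. With shNizp1#2 over sh#ctrl, and with the fusion over MSCV, 0 of the 16 were called, with medians of -0.30 and 0.11. With the mean of both hairpins over sh#ctrl 3 were called lower, namely Ngp, S100a8 and S100a9, where 0.359% of all tested genes were called. That count was between 0 and 2 with 1 library left out, and 0, 1 and 0 without experiments 1, 2 and 3. Gfi1 and Cebpe, whose products act in late neutrophil development, did not pass the test. Their estimates had the sign of the late neutrophil medians with shNizp1#1 over sh#ctrl and between the hairpins, which share the shNizp1#1 libraries. With the fusion over MSCV the blocked estimate was 0.56 for Gfi1 and -0.57 for Cebpe, against the median of 0.11. A link between these factors and the late neutrophil genes was not tested.

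Among the 21 target genes of PU.1 and C/EBP proteins, 1 was called with shNizp1#1 over sh#ctrl, where 1.63% of all tested genes were called, so the count is near that share. It was Csf2ra, the α chain of the GM-CSF receptor, with 16.2, 33.5 and 16.9 CPM with shNizp1#1 in experiments 1, 2 and 3, against 33.1, 63.6 and 25.5 CPM with sh#ctrl (-0.83, SE 0.17, adjusted p 0.0218). Between the hairpins, where 2.37% of all tested genes were called, 2 were higher with shNizp1#2, Tyrobp, a signalling adaptor (0.61, SE 0.10, adjusted p 0.00591), and Ncf4, a subunit of the phagocyte oxidase (0.45, SE 0.10, adjusted p 0.0307). Tyrobp had 322, 421 and 436 CPM in experiments 1, 2 and 3 with shNizp1#2, against 198, 297 and 283 CPM with shNizp1#1. With the fusion over MSCV, with shNizp1#2 over sh#ctrl and with the mean of both hairpins, 0 of the 21 were called, including Csf2rb and Lyz2.

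Among the other regulators, 1 of 27 was called, between the hairpins only, near the 2.37% of all tested genes called there. Irf2, a relative of Irf8, had 50.7, 54.7 and 40.5 CPM in experiments 1, 2 and 3 with shNizp1#2, against 21.9, 35.7 and 28.6 CPM with shNizp1#1 (0.76, SE 0.14, adjusted p 0.0103), with no overlap of the groups. Among the 13 measured genes linked to IRF8 and IRF4, 1 was called with shNizp1#1 over sh#ctrl and 2 between the hairpins. Of all tested genes, 1.63% and 2.37% were called in these comparisons. Clec10a, a C-type lectin of macrophages and dendritic cells, had 248, 94.9 and 122 CPM with shNizp1#1, against 63.5, 34.1 and 20.6 CPM with sh#ctrl (2.02, SE 0.26, adjusted p 0.00857), and was lower with shNizp1#2 than with shNizp1#1 (-2.43, adjusted p 0.00304). Ciita, the master regulator of MHC class II genes, was higher with shNizp1#2 than with shNizp1#1 (1.75, SE 0.41, adjusted p 0.0367), at 2.61, 12.7 and 3.23 CPM with shNizp1#2 against 0.714, 3.07 and 1.25 CPM with shNizp1#1. The other 11 measured genes linked to IRF8 and IRF4 were not called in any comparison, among them Cst3, cystatin C, and Cx3cr1, the fractalkine receptor. In the 6 fits that each left out 1 library of the groups compared, Tyrobp and Irf2 were called in 4, Ncf4 and Ciita in 0 and Csf2ra in 1, while Clec10a was called in 5 with shNizp1#1 over sh#ctrl and in 6 between the hairpins.

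The genes whose levels ran closest to each factor, among 8869 genes of at least 10 CPM on average, were found by Pearson correlation of log2(CPM + 1) over the 12 libraries. This is a description: the libraries share 3 experiments, and a value within experiments, after removal of each experiment's mean, stands beside it. Irf8 ran with Tifab, the gene of a TIFA-related protein (r 0.993, within experiments 0.959), and Rin2, a RAB5 exchange factor (0.990 and 0.951). Cebpa ran with Plxnc1, a semaphorin receptor (0.987 and 0.951), and Tlr13, which in mice senses bacterial ribosomal RNA (0.985 and 0.973). Cebpb ran with the pseudokinase gene Peak1 (0.977 and 0.866) and with Ppp1r3b, a glycogen-targeting phosphatase subunit (0.967 and 0.795). For the steadier factors the values over 12 libraries were lower. Their values within experiments lay below those of Irf8 and Cebpa and overlapped those of Cebpb. Cebpg ran with Ythdc2, an RNA helicase (0.932 and 0.923), and Eif2s3x, a translation initiation subunit (0.922 and 0.707). Gfi1 ran with Tent4b, a poly(A) polymerase (0.900 and 0.860), and Trappc8, a vesicle tethering subunit (0.899 and 0.889). Spi1 ran with Dnase1l1 (0.900 and 0.778) and Zswim8, a ubiquitin ligase subunit (0.892 and 0.708). Cebpd, Cebpe and Irf4 averaged under 10 CPM and were not searched.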

How the data were processed

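Poly(A) RNA was sequenced in 12 libraries with a stranded kit and single reads of 75 nt, per the labels' protocols. The authors deposited a raw read count per gene and library. The submitters' processing notes name Trimmomatic 0.32, STAR 2.5.3a, featureCounts and the build mm10. The version of featureCounts, its strand setting and its annotation were not given in the sources used here.

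Counts were tested with the quasi-likelihood F test of edgeR 4.0.16 in R 4.3.3 (robust, TMM scaling, 1 mean per group over 12 libraries, genes filtered on the group design), with Benjamini-Hochberg adjustment over 11994 genes and a threshold of 0.05. SEs were derived from the F statistic, and 95% intervals from the t distribution with the fit's degrees of freedom. The procedure was run on simulated data, where criteria for recovery and false calls were set for the blocked fit only.

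The labels do not say what a replicate number marks. Deviations from group means correlated in all 18 pairs of libraries with the same number (r 0.223 to 0.877, median 0.738), and pairs with different numbers had a median r of -0.261. A fit with the number as a block therefore stands beside the main one. All replicate pairs differed by more than sampling noise. The labels name no animals or cultures, and p-values then reflect only the spread among the libraries, which may be technical.

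Alternatives were RLE and upper-quartile scaling, 2 other filters, fits of the compared groups only, each library or experiment left out, DESeq2 1.42.0 and limma-voom (limma 3.58.1). The members and gene lists were chosen with earlier results of these data known. All 9 factors and Zkscan17 are named. Of each list, the called genes (at most 4 a comparison, by size of change) are named or, with none called, the 2 most abundant. Csf3r, Csf1r, Ctsg, Mmp8, Mecom, Hlf and Meis1 were named after their values were seen. Likeness took the 2 best-correlated genes of at least 10 CPM leaving out predicted genes and clone names. Motifs were searched in RefSeq promoter windows (GRCm38.p6).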

Additional observations from a re-analysis of the deposited data

How the results depend on the processing

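The count of called factors was 0 in every group comparison, and the replicate block alone changed no call. The count moved to 1, Gfi1 in each case, in 8 instances, all with the block: without a filter on low counts (the fusion over MSCV, shNizp1#1 over sh#ctrl and shNizp1#2 over shNizp1#1), with only the groups compared in the fit (shNizp1#1 over sh#ctrl and between the hairpins), and without experiment 2 in every group (the fusion over MSCV and between the hairpins). For the fusion, fits that left out 1 library gave counts from 0 to 1, with 1 without the MSCV library of experiment 2. The cause was not tested. The log2 fold change of Gfi1 kept its sign under all 30 alternatives of each of these comparisons, between 0.25 and 1.07 for the fusion, -0.71 and -0.44 for shNizp1#1, and 0.39 and 0.68 between the hairpins. Of 1236 values of single factors in group comparisons under alternatives, 8 were called, and 192 had the opposite sign while uncalled. RLE and upper-quartile scaling changed no factor's call between groups. Ratios of experiment 2 to experiment 3 without 1 library were added after the data were seen. For replicate number, between 6 and 9 factors were called under the 18 alternatives, against 7. Gfi1 was called under 9 of these, including DESeq2 (adjusted p 0.00519), limma-voom (0.0381) and both other scalings. Over all genes, calls ranged from 0 to 451 with the fusion, 0 to 512 with shNizp1#1, 0 to 369 with shNizp1#2, 0 to 393 with the mean of both hairpins and 0 to 1150 between the hairpins, and from 4916 to 6732 for replicate number. Counts limit Cebpe, Irf4 and, in experiment 3, Cebpa and Irf8, where 3 counts of a library lie close to the levels measured.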
